A study of Mus musculus with 8 samples.

Results

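The genes described here encode T cell co-receptors (Cd4, Cd8a, Cd8b1), costimulatory receptors (Cd28, Icos, Cd27, Tnfrsf4, Tnfrsf9) and markers of activation (Cd69, Il2ra). These 10 members were found by their gene symbol in the deposited peak lists, which gave 34 peaks in the PTC list and 39 peaks in the control list, out of 23368 and 29586 peaks and out of 12413 genes with a peak in either list. The samples were mouse primary T cells exposed for 24 h to PTC, which the labels do not describe further, and control cells of the same time. RNA bound by an antibody against N6-methyladenosine (m6A) was sequenced beside input RNA, with 2 immunoprecipitated and 2 input samples per condition, so 8 samples in 4 groups. The tables analysed hold 1 peak list per condition and no value per sample, so that no test between the conditions was possible and every difference below has no replicate check. The labels give no strain, age, sex or purification of the cells, and read depth per sample is unknown. Fold enrichment, p and the false discovery rate (FDR) of each peak are the authors' values, made within 1 list, and are given here as a description; a high −log10 FDR marks a peak that stood out clearly from its input.

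m6A is a methylated adenosine that a nuclear complex writes into messenger RNA, mostly within short motifs around an adenosine followed by cytosine, and often near stop codons and in long last exons. Reader proteins of the YTH family bind it, and it is known to influence how long a transcript lasts and how well it is translated. CD4 and CD8 bind the constant parts of class II and class I major histocompatibility molecules and bring the kinase Lck to the T cell receptor. CD28 and ICOS bind ligands of the B7 family, and CD27, OX40 (Tnfrsf4) and 4-1BB (Tnfrsf9) are receptors of the tumour necrosis factor family that add signals through TRAF proteins. CD69 is an early activation antigen that holds cells in tissue by lowering the sphingosine phosphate receptor S1PR1 at the surface, and Il2ra encodes CD25, the alpha chain of the high affinity interleukin 2 receptor.

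The motif GGACT is the most typical m6A sequence, and its sites in the peaks are some of the places that could carry the mark. Most member peaks held no GGACT site. A site was searched on the transcribed strand only, and each is shown with its flanks, 21 nt in all, read from GENCODE M21 transcripts (GRCm38) with the motif in capitals. The first set gives 1 site for each member whose strongest peak in both lists contained GGACT.
Cd4, 3' UTR, chr6:124865900-124865920, minus strand: ggatggtgGGACTggtgtctg
Cd8a, 3' UTR, chr6:71377738-71377758, plus strand: cgaacctcGGACTttttataa
Cd8b1, 3' UTR, chr6:71336753-71336773, plus strand: caataaaaGGACTgtaactca
Cd28, 3' UTR, chr1:60771109-60771129, plus strand: atgaaggtGGACTttcttttt
Icos, 3' UTR, chr1:60997740-60997760, plus strand: aaacgcatGGACTagttcccc
Cd27, coding, chr6:125233334-125233354, minus strand: atccaggaGGACTaccggaaa
Tnfrsf4, coding, chr4:156013908-156013928, plus strand: tgctgctgGGACTcacacttg
Cd69, coding, chr6:129268297-129268317, minus strand: accgctgtGGACTgtgaggca
Il2ra, 3' UTR, chr2:11689936-11689956, plus strand: actaaactGGACTttgccatt
The second set gives the sites that lay in a peak of 1 list only, the first of them in PTC and the other 6 in control.
Cd27, coding, chr6:125236576-125236596, minus strand: tttgtgaaGGACTgtgaacaa
Cd27, coding, chr6:125233727-125233747, minus strand: tgcagctcGGACTgcatccgg
Cd8a, coding, chr6:71374767-71374787, plus strand: accggattGGACTtcgcctgt
Cd28, 3' UTR, chr1:60772917-60772937, plus strand: ttctctcaGGACTtgtgaatg
Tnfrsf9, coding, chr4:150932403-150932423, plus strand: tgtgaaaaGGACTgcaggcct
Tnfrsf9, 3' UTR, chr4:150945350-150945370, plus strand: ttttaataGGACTgtgggaag
Cd69, intron 1 of the principal transcript, chr6:129275000-129275020, minus strand: tcttgaaaGGACTtttccttt

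All 10 members had peaks in both lists, as did 79.2% of all genes with a peak in either list, and none was in PTC only (8.24% of genes) or in control only (12.5%). None of the 10 lacked shared covered bases, which 5.30% of genes in both lists did. The strongest peak of each member, by p-value, met a peak in the opposite list in 10 of 10 members from either side. Among all genes in both lists this held for 92.2% of strongest PTC peaks and 90.2% of strongest control peaks. Of all member peaks, 31 of 34 in the PTC list were overlapped by a control peak (91.2%, exact Clopper-Pearson 95% interval 76.3 to 98.1%), against 78.8% of all PTC peaks, and 30 of 39 in the control list were overlapped by a PTC peak (76.9%, 60.7 to 88.9%), against 60.2% of all control peaks. These intervals cover counting error only. Among all peaks, overlapped ones had a median −log10 FDR of 9.43 in PTC and 10.1 in control. Those not overlapped had 3.08 and 3.32. Member peaks had medians of 19.4 and 24.8, and the shares are not matched for strength or width. Whether members share more than equally strong peaks was not tested. Overlap here means at least 1 bp shared over exon blocks on the same strand.

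The members differed between the lists in extent more than in presence. Peaks covered 16804 nt of member exons in the PTC list and 20394 nt in the control list, and 15372 nt were common to both, which is 91.5% of the PTC length and 75.4% of the control length. In each of the 10 members the covered length was smaller in the PTC list, a direction seen in 68.0% of all genes in both lists. The gap was small in Cd8b1 (1336 against 1365 nt) and Tnfrsf4 (476 against 505 nt). In Tnfrsf4 and Cd69 the order rested on control sequence outside the principal transcript, such as 110 and 566 nt of their first control peaks. Within the principal transcript both had more covered length in PTC, and the other members had less. Over all annotated exons the smaller PTC length held for the 10 members also at a −log10 FDR of at least 5, where 64.1% of genes had it. It held too with both lists at equal length, where 63.0% had it. At a fold enrichment of at least 4 it held for 3 of the 4 members still in both lists, against 59.8% of genes. The exception was Cd69, whose remaining peaks measured 361 and 1111 nt in PTC and 691 nt in control. At equal length all 10 members were again in both lists, as were 78.8% of genes, with 13.6% in PTC only and 7.53% in control only. The number of peaks did not follow a single direction. It was lower in PTC in 5 members, higher in 4 and equal in 1, against 41.6%, 16.0% and 42.4% of all genes in both lists. A peak is called where immunoprecipitated reads exceed input reads, so less methylation, less of the transcript and fewer cells of a type cannot be told apart in these bulk lists.

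**Figure D1:**
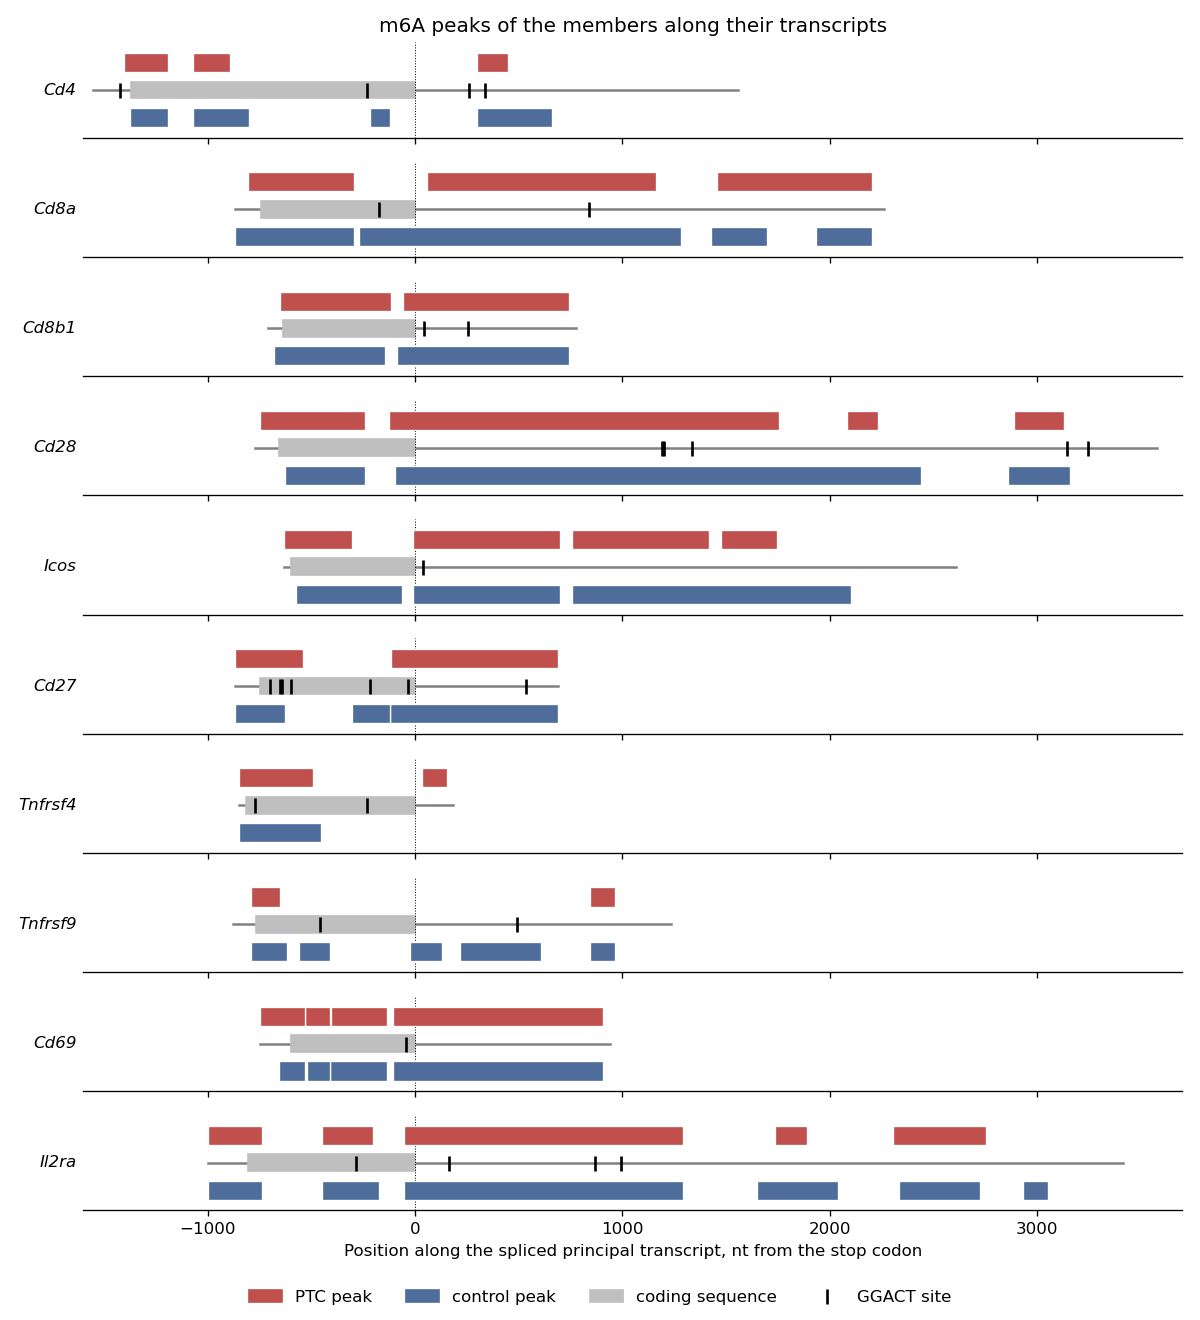
m6A peaks of the 10 members along the spliced principal transcript, in nt from the stop codon (dotted line), with PTC peaks in red above and control peaks in blue below each transcript. Grey boxes are coding sequence and ticks are GGACT sites, and parts of peaks outside the principal transcript are not drawn; 6 members, Cd8b1, Cd28, Icos, Cd27, Cd69 and Il2ra, have their strongest peak of both lists across the stop codon.

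**Figure D2:**
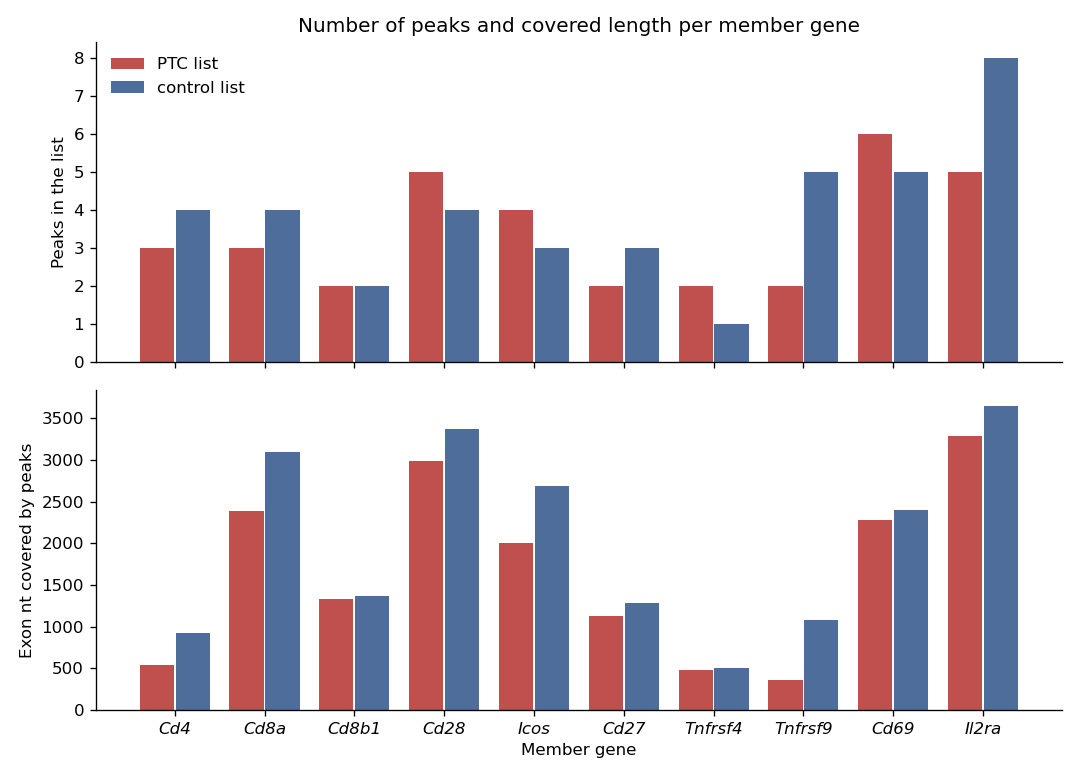
Number of peaks (top) and exon nucleotides covered by peaks (bottom) for each member in the PTC list (red) and the control list (blue), 1 value per list. Counted over exons of all annotated transcripts, the PTC bar of covered length is the shorter in all 10 members. Within the principal transcript alone, Tnfrsf4 and Cd69 have more in PTC. The gap is widest in proportion for Tnfrsf9, with 361 nt in PTC and 1082 nt in control.

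Among the co-receptors, Cd8b1, the beta chain of CD8, had the same 2 peaks in both lists. Its strongest peak began in the last coding exons, crossed the stop codon and filled nearly the whole 3' UTR. It ran over 801 nt in the PTC list (chr6:71332517-71337464, fold enrichment 4.39, −log10 p 594, FDR too small to be listed) and over 831 nt in the control list (chr6:71332487-71337464, 4.07, −log10 FDR 271). The other peak lay in the coding sequence (fold enrichment 2.91, −log10 FDR 153 in PTC, and 3.40 and 186 in control). Covered length was 1336 nt in PTC and 1365 nt in control, and 95.7% of the control length was also covered in PTC, the highest share of the 10 members. Both of its GGACT sites lay in the shared 3' peak.

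Cd8a, the alpha chain, had 3 peaks over 2386 nt in PTC and 4 peaks over 3102 nt in control. Its strongest peak in control began in coding sequence, contained the stop codon and reached far into the 3' UTR (chr6:71374530-71378189, 1550 nt, fold enrichment 3.99, −log10 FDR 76.9). The strongest PTC peak lay wholly inside it and held 3' UTR alone (chr6:71376968-71378070, 1103 nt, 2.37, 50.2). A GGACT site in coding sequence, at position −173 from the stop codon, was thus in a control peak and in no PTC peak. At the start of the transcript both lists had a peak, of 537 nt in PTC (fold enrichment 2.94, −log10 FDR 46.3) and of 1014 nt in control (12.0, 37.7). The control peak reached 443 nt into sequence that only a retained-intron transcript, Cd8a-203, contains, and the PTC peak 26 nt.

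Cd4 had the lowest −log10 p for its strongest peak among the 10 members in either list. It had 3 peaks over 540 nt in PTC and 4 peaks over 929 nt in control. Only 13.4% of its annotated exon length was covered in PTC and 23.0% in control. The strongest peak of both lists lay in the 3' UTR and held the GGACT site 337 nt after the stop codon. It measured 150 nt in PTC (chr6:124865797-124865946, fold enrichment 2.04, −log10 FDR 13.4) and 359 nt in control (chr6:124865588-124865946, 2.03, 14.3), with the same upstream edge. A pair of coding peaks was common to the lists, with −log10 FDR of 4.90 and 5.78 in PTC and 1.79 and 13.6 in control. A further control peak, with its midpoint at −181 nt from the stop codon in coding sequence, had no PTC partner and a −log10 FDR of 2.32.

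Of the B7 receptors, Cd28 had peaks over much of a long 3' UTR in both lists. The strongest peak was a single block from the last coding exon through the stop codon. It spanned 1882 nt in PTC (chr1:60769657-60771538, fold enrichment 7.40, −log10 FDR 231) and 2539 nt in control (chr1:60769686-60772224, 6.54, 140), and contained the same 3 GGACT sites, 1193, 1200 and 1336 nt after the stop codon. The PTC list split this stretch, since a second PTC peak of 150 nt lay under the same control peak (fold enrichment 1.42, −log10 FDR 5.84). Cd28 therefore had 5 peaks in PTC and 4 in control while the covered length was 2990 nt in PTC and 3378 nt in control. Downstream of a coding exon that the first peaks of both lists reached, each list had a weak peak of its own in sequence of a retained-intron transcript, Cd28-203, with a −log10 FDR of 3.83 in PTC and 3.07 in control.

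Icos, the inducible costimulator, showed the same splitting. It had 4 peaks over 2002 nt in PTC and 3 peaks over 2687 nt in control. The strongest peak crossed the stop codon and held the only GGACT site of the gene, 38 nt after it, in PTC (chr1:60995763-60998412, 747 nt, fold enrichment 2.45, −log10 FDR 109) and in control (chr1:60995674-60998412, 836 nt, 3.13, 94.4). The rest of its 3' UTR carried 2 PTC peaks of 657 and 269 nt, with −log10 FDR of 22.2 and 29.4, under a single control peak of 1343 nt with 44.3. Every PTC peak of Icos had a control partner and the reverse.

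Among the tumour necrosis factor receptors, Cd27 had 2 peaks over 1135 nt in PTC and 3 peaks over 1286 nt in control. Its strongest peak ran from the last coding exon to the annotated end of the transcript. It covered 806 nt in PTC (chr6:125232622-125233427, fold enrichment 4.59, −log10 FDR 68.4) and 836 nt in control (chr6:125232622-125233583, 5.98, 82.2). Of the 8 GGACT sites of Cd27, the most of any member, 6 lay in PTC peaks, 6 in control peaks and 5 in both. The first peak, over the start of the coding sequence, measured 329 nt in PTC (−log10 FDR 13.8) and held 4 GGACT sites, and measured 240 nt in control (7.11) and held 3. A control peak of 210 nt nearer to the stop codon had no PTC partner (fold enrichment 2.27, −log10 FDR 6.26).

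Tnfrsf4 and Tnfrsf9 were the members whose strongest peak lay over the start of the coding sequence in both lists, and in the other 8 its midpoint was in the 3' UTR, as for 50.2% of strongest PTC peaks and 48.6% of strongest control peaks of coding genes in both lists. In Tnfrsf4 it began at the first annotated base and ran over 357 nt in PTC (chr4:156013843-156014971, fold enrichment 3.42, −log10 FDR 67.9) and over 505 nt in control (chr4:156013843-156015119, 2.91, 49.1). The PTC peak lay wholly inside the control peak, and the added control length was mostly sequence of a noncoding transcript, Tnfrsf4-202 (110 nt). A PTC peak of 119 nt in the short 3' UTR had no control partner (chr4:156016464-156016582, 1.55, 6.56). It was the strongest of the 3 PTC peaks of the members without a partner.

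Tnfrsf9 had 2 peaks over 361 nt in PTC and 5 peaks over 1082 nt in control, all PTC length lay inside control peaks, and 33.4% of the control length was covered in PTC, the lowest share of the 10 members. Its strongest peak covered 240 nt in PTC (chr4:150929728-150930747, fold enrichment 2.14, −log10 FDR 14.4) and 270 nt in control (chr4:150929728-150930777, 4.47, 36.1). In each list 96 nt of it lay outside the principal transcript, in sequence of other annotated transcripts such as Tnfrsf9-209. A peak of 121 nt in the 3' UTR had identical borders in the lists (chr4:150945713-150945833), with a −log10 FDR of 7.82 in PTC and 4.90 in control.

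The 3 control peaks of Tnfrsf9 without a PTC partner lay in the coding sequence (chr4:150932311-150933047), across the stop codon (chr4:150944846-150944996) and in the 3' UTR (chr4:150945085-150945474). Their fold enrichments were low, 1.58, 1.29 and 1.65, and their −log10 FDR was 5.60, 7.85 and 17.7. Of the 4 GGACT sites of the gene none was in a PTC peak and 2 were in control peaks, both of these in peaks without a partner. It was the only member with no GGACT site in any PTC peak.

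Of the activation markers, Cd69 had 6 peaks over 2286 nt in PTC and 5 peaks over 2405 nt in control. Its strongest peak held the stop codon and nearly all of the 3' UTR and ended at the same base in both lists. It covered 1111 nt in PTC (chr6:129267355-129269546, fold enrichment 4.37, −log10 p 459, FDR too small to be listed) and 1081 nt in control (chr6:129267355-129269516, 3.65, −log10 FDR 283). The single GGACT of its principal transcript lay in it, 44 nt before the stop codon. The first exon of Cd69 carried a PTC peak of 361 nt with the highest fold enrichment of the members in that list (13.6, −log10 FDR 11.9), and a control peak of 691 nt (4.96, 29.7).

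Much of that first Cd69 peak lay outside the spliced message. Of the control peak 566 nt, and of the PTC peak 146 nt, were in sequence that among the annotated transcripts only a retained-intron form, Cd69-204, contains. A second PTC peak of 211 nt (fold enrichment 1.35, −log10 FDR 3.37) lay further along the same intron and under the same control peak. Weak peaks farther into Cd69-204 had no partner, 1 in PTC (−log10 FDR 2.14) and 1 in control (3.35).

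Il2ra had the strongest peak of all members in both lists, by p-value, with 5 peaks over 3292 nt in PTC and 8 over 3655 nt in control. The strongest peak had identical borders (chr2:11684411-11691070, 1346 nt), ran from the second last coding exon across the stop codon into the 3' UTR and held 3 GGACT sites, 166, 870 and 995 nt after the stop codon. Its fold enrichment was 4.70 and its −log10 p 778 in PTC, and 3.97 and 584 in control, and in neither list was the FDR large enough to be listed. All 4 GGACT sites of Il2ra lay in peaks of both lists. Farther along the 3' UTR, PTC peaks had a −log10 FDR of 7.65 and 11.4, and the control peaks over them 32.8 and 24.8.

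A separate Il2ra peak lay partly outside the full-length message. It began at the first base of exon 1 and continued in the last exon of Il2ra-202, a coding transcript that shares exon 1 and then ends in an exon of its own. In PTC this was 1 peak of 1047 nt, 789 nt of them in that exon (chr2:11642807-11648760, fold enrichment 3.31, −log10 FDR 69.1). In control it was divided into 2 peaks of 270 and 629 nt, with fold enrichments of 2.03 and 2.49 and −log10 FDR of 59.2 and 30.1. Control peaks without a PTC partner were a peak of 181 nt, nearly all in a retained intron of Il2ra-203 (−log10 FDR 6.56), and a peak of 120 nt at the far end of the 3' UTR (3.54).

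The members had small p-values for the fold enrichments they carried. Of the PTC peaks 30 of 34 (88.2%), and of the control peaks 33 of 39 (84.6%), had a −log10 FDR of 5 or more, against 59.8% and 53.4% of all peaks. A fold enrichment of at least 4 was reached by 6 PTC peaks (17.6%) and 8 control peaks (20.5%), against 45.2% and 45.0%. The median fold enrichment was 2.33 for PTC and 2.49 for control member peaks, and 3.66 and 3.65 over all peaks of the lists. The median −log10 FDR was 19.4 for PTC and 24.8 for control member peaks, and 6.61 and 5.47 over all peaks. Depth at a gene, which a p-value depends on, is not given in the lists. When peaks with a fold enrichment of at least 4 were kept, 7 members remained listed. Cd8b1, Cd28, Cd27 and Cd69 were then in both lists, Il2ra was in PTC only, and Cd8a and Tnfrsf9 were in control only, where 59.4%, 16.0% and 24.6% of all genes fell into these classes. A class set by this limit can rest on a small gap, as for the Il2ra peak of identical borders, at 4.70 in PTC and 3.97 in control. Cd4, Icos and Tnfrsf4 had no peak of that fold in either list. At the FDR limit all 10 members were in both lists, as were 79.5% of genes, with 9.86% in PTC only and 10.6% in control only.

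**Figure D3:**
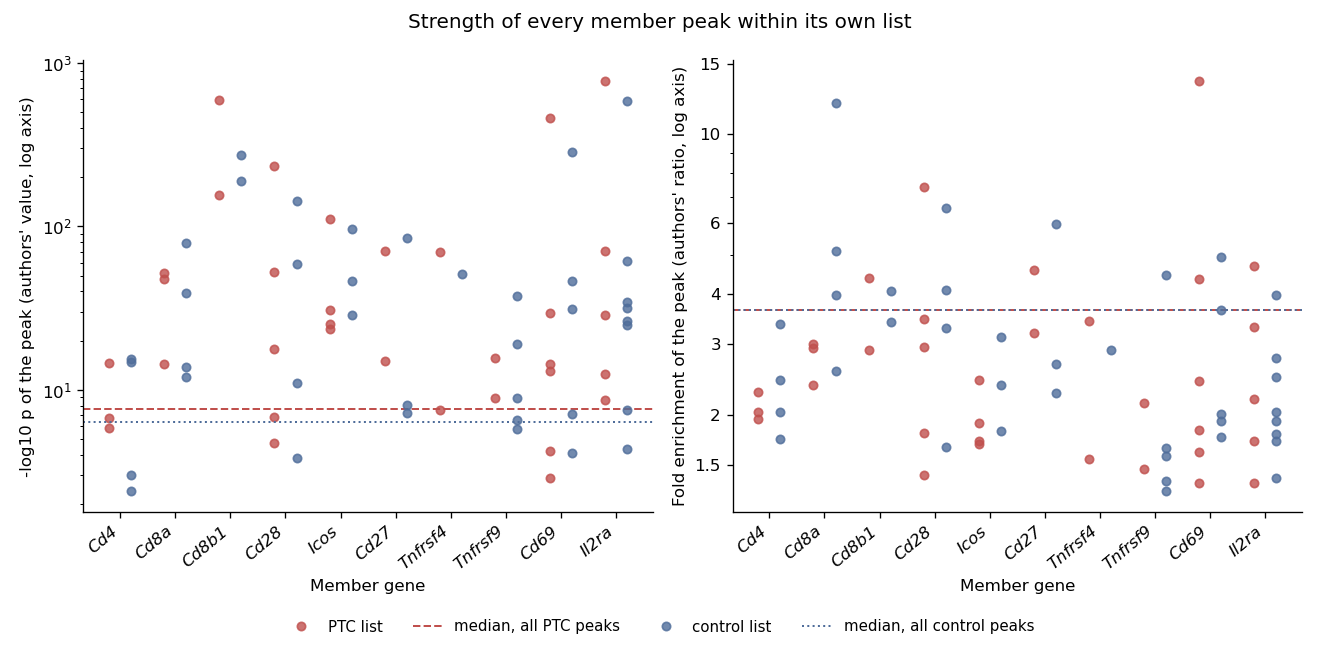
The authors' −log10 p (left) and fold enrichment (right) of each of the 34 PTC (red) and 39 control (blue) member peaks, on log axes, with the median of all peaks of each list as a broken line. Most member peaks lie above the median of their list for −log10 p and below it for fold enrichment, where the lines at 3.66 and 3.65 coincide.

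By nucleotides, member peaks lay more in 3' UTRs than the peaks of all coding genes, while by midpoint the shares were closer. The 3' UTR itself made up from 180 of 1030 nt (Tnfrsf4) to 3574 of 4347 nt (Cd28) of the members' principal transcripts. The shares are not adjusted for this, and whether peaks favoured the 3' UTR beyond its length was not tested. The 3' UTR of the principal transcript held 61.0% of peak nucleotides in PTC and 59.5% in control, against 43.6% and 43.4% over all coding genes, and coding sequence held 23.4% and 24.0%, against 45.2% and 43.7%. The strongest peak contained the stop codon in 6 members in PTC and in 7 in control, Cd8a being the difference, where 46.6% and 44.8% of coding genes in both lists had this. Counted by midpoint, 17 of 34 PTC peaks (46.1% of all) and 18 of 39 control peaks (42.2%) were in the 3' UTR, 13 (39.8%) and 15 (41.1%) in coding sequence, and 4 (9.19%) and 5 (11.7%) outside the principal transcript. The stop codon was inside 6 PTC peaks (17.6%, against 24.8% of all) and 8 control peaks (20.5%, against 19.5%). The midpoint of a member peak was seldom close to the stop codon. Within 200 nt of it lay 1 of 34 PTC midpoints (2.94%) and 2 of 39 control midpoints (5.13%), against 20.4% and 15.1% of all midpoints. The Cd28 peak that contained the stop codon had its midpoint 815 nt past it in PTC and 1172 nt in control, and the control peak of Tnfrsf9 across the stop codon had its midpoint 53 nt past it. Within 100 nt lay 2.94% of PTC and 2.56% of control member midpoints, against 10.9% and 8.13% of all. Within 400 nt lay 26.5% of PTC and 28.2% of control member midpoints, against 33.7% and 26.8% of all.

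**Figure D4:**
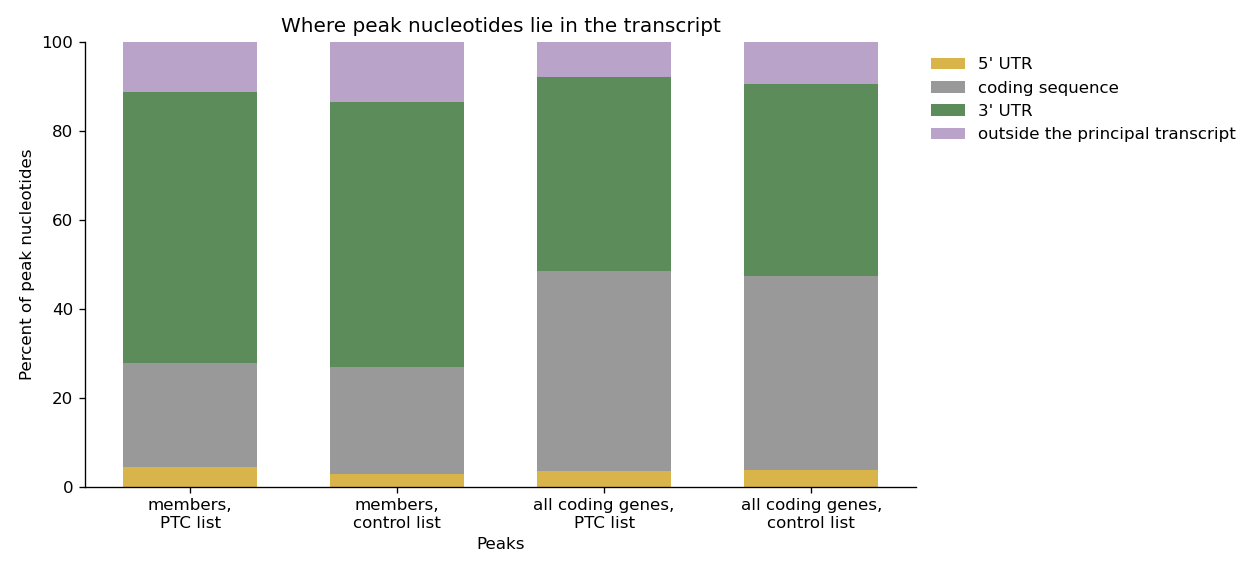
Share of peak nucleotides, in percent, in the 5' UTR, coding sequence and 3' UTR of the principal transcript and outside it, for the members and for all coding genes, PTC list left of control list. The 3' UTR part is 61.0% and 59.5% in the members, and 43.6% and 43.4% in all coding genes.

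GGACT was found in 12 of 34 PTC member peaks (35.3%) and 16 of 39 control member peaks (41.0%), against 37.5% and 34.5% of all peaks, so over whole peaks the members' shares were near those of the lists. In a short window around the midpoint GGACT was in 6.67% of 30 PTC and 8.82% of 34 control member peaks, against 13.4% and 12.0% of all peaks. The member shares rest on very few peaks with a site, and a wide peak can hold its sites outside such a window. A lower share in the members is therefore not shown. Per kb of peak the members had 1.25 GGACT sites in PTC and 1.27 in control, and all peaks 1.33 and 1.24. Of the 41 GGACT sites in annotated exons of the members 20 lay in peaks of both lists, 1 in PTC only, 6 in control only and 14 in neither. These shares, 51.2% in PTC and 63.4% in control, stand beside peaks that covered 45.0% and 54.6% of the same exons. The wider consensus DRACH, which includes GGACT and where D is any base but C, R a purine and H any base but G, was in all 34 PTC and 38 of 39 control member peaks, as in 97.8% and 97.4% of all peaks. A match shows that the letters are present, not that the base is methylated.

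Genes that work with the members were nearly all listed in both conditions too. Of 45 such genes 44 had a peak, 42 in both lists, none in PTC only and 2 in control only, where 79.2%, 8.24% and 12.5% of all listed genes fell into these classes. Cd70, the ligand of CD27, had 1 control peak (−log10 FDR 2.47), and Stat5a, a transcription factor downstream of the interleukin 2 receptor, had 1 (5.14). Il2, the ligand of the receptor that Il2ra belongs to, had no peak in either list. The 42 genes had fewer peaks in PTC in 21 cases, more in 10 and equal numbers in 11, against 41.6%, 16.0% and 42.4% of all genes in both lists. A median 89.6% of their PTC length was also covered in control and 74.5% of their control length in PTC, near the members' 92.9% and 75.1%. Over all genes in both lists the medians were 85.3% and 67.3%, not matched for peak strength.

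Of the 7 ligands 5 were in both lists, and the CD28 ligand gene Cd86 was the strongest, with 3 PTC and 5 control peaks and a −log10 FDR of 106 in PTC and 67.4 in control. For the OX40 ligand gene Tnfsf4 these values were 42.4 and 27.3, for the ICOS ligand gene Icosl 28.1 and 21.7 and for the second CD28 ligand gene Cd80 25.8 and 13.6. These ligands are made mainly by antigen-presenting cells. All 12 further receptors and adhesion molecules were in both lists. The interleukin 2 receptor beta chain gene Il2rb had an FDR too small to be listed in both (−log10 p 386 in PTC and 341 in control), and the common gamma chain gene Il2rg had a −log10 FDR of 141 and 115. The adhesion receptor gene Cd2 had 1 peak in each list (−log10 p 207 in PTC and 141 in control).

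All 18 kinases, adaptors and TRAF genes were in both lists. For the phosphoinositide 3-kinase genes Pik3r1 and Pik3cd the −log10 p was 201 and 196 in PTC and 104 and 135 in control, and for Traf1, a TRAF protein of activated lymphocytes, 195 in PTC and 96.7 in control. Of 8 regulators 7 were in both lists. The chromatin organiser gene Satb1 led with 5 PTC and 9 control peaks (−log10 p 791 and 472), followed by S1pr1, the partner of CD69, with 384 and 224. Runx3, a factor of CD8 T cells, had a −log10 FDR of 71.8 in PTC and 52.8 in control, and Zbtb7b, which directs CD4 fate, 40.6 and 29.7. At a fold enrichment of at least 4, 21 of these 45 genes were in both lists, 5 in PTC only and 5 in control only. The rest had no such peak, and genes without one are left out of the shares that follow. Of all genes with such a peak 59.4% were in both, 16.0% in PTC only and 24.6% in control only.

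Markers were checked because some members are also expressed by other blood cells. Of 45 markers 35 were listed, 27 in both lists, 6 in PTC only and 2 in control only. Of all listed genes 79.2%, 8.24% and 12.5% fell into these classes. All 10 T cell markers were listed, 9 in both lists, and those with the highest −log10 FDR in either list were Bcl11b, Cd247, Thy1 and Cd3d. Thy1 was among them through its control value of 60.9, and had 15.5 in PTC. The T cell receptor constant gene Trbc2 was in PTC only (−log10 FDR 5.36), and its reads cannot be surely told from those of its near copy Trbc1. Of 8 B cell markers 7 were in both lists, led by Igkc, Cd79b, Ms4a1 and Ighm, and Cd79a was in neither. The peak of Igkc had a −log10 p of 1310 in PTC and 1980 in control, above that of any member peak. Of 10 myeloid and dendritic markers 8 were in both, led by Mpeg1, S100a8, Cd14 and S100a9, Tyrobp was in PTC only (11.4) and Itgam in neither. Of 6 genes taken as natural killer markers Eomes and Klrb1c were in both. Klra1 was in PTC only (2.04), Ncr1 (2.45) and Klra7 (4.19) in control only and Klre1 in neither. Only Eomes had strong peaks (168 in PTC and 116 in control), with Klrb1c at 5.65 and 4.69. Whether the Eomes peaks came from T cells was not tested. Alas2 was the 1 of 6 red cell and platelet markers in both. Weak peaks of Hbb-bs (1.91), Hbb-bt (3.91) and Pf4 (3.84) were in PTC only, and Hba-a1 and Ppbp were in neither. None of 5 hepatocyte markers was listed. How much of the members' signal came from such cells was not tested.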

How the data were processed

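The samples were 8 libraries of mouse primary T cells, 2 each of PTC immunoprecipitate, PTC input, control immunoprecipitate and control input, grouped by their titles. It is not stated whether samples came from separate animals or cultures. BWA 0.7.12, MACS2 2.1.0 and build GRCm39 are named, with no roles, per the submitters' processing notes. The caller, its settings and any pooling of samples are not stated in the sources used here. Per the file headers, each deposited peak has a p-value, a log10 p and log10 FDR score and a fold enrichment, a linear ratio taken as immunoprecipitate over input, all made by the authors. A summary table deposited by the authors lists 33.03 percent of reads in peaks for PTC and 36.07 percent for control, fragment lengths of 211 and 213 nt, and peak numbers of 15855 and 19420, fewer than the lines of the lists. Depth per sample is unknown, and intervals cover counting error only.

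Peaks were compared with GENCODE mouse release M21. Of PTC peaks 99.8% and of control peaks 99.9% lay inside the gene of the same Ensembl identifier, so positions are read as GRCm38, from 1, and none was converted. The principal transcript had the best APPRIS rank, then a CCDS entry, then the greatest length. A peak's region was that of its midpoint along the exon blocks. Sequences were read from the GENCODE transcripts. No member peak touched an exon of another gene. Overlaps used bedtools 2.31.1, and the functions were tested on simulated data. Fold and FDR describe and rank peaks within a list, and the same limits on them were also applied to both lists, so that a gene can be in 1 list only through a small difference in fold. The members and gene lists were chosen with earlier results of these data known. All members were described; of the other lists, each gene in 1 list only and at most 4 per role with the smallest FDR were named, taking −log10 p where the FDR was too small to be listed. Some genes that this rule names are not reported here. Alternatives were peaks with a −log10 FDR of at least 5, a fold of at least 4, lists of equal length, stricter overlap, other distances and a short window around the midpoint for motifs.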

Additional observations from a re-analysis of the deposited data

How the results depend on the processing

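No paired analysis was possible because the lists hold no values per sample, and for the same reason no replicate could be left out. Of 97 recomputed values 63 stayed within their interval or 1.5 times the count and 34 moved. The intervals are wide and treat peaks of the same gene as separate, and some settings, such as the distance limits, change a share by definition. The tally therefore does not measure how firm the results are. The median PTC −log10 FDR has no value at a fold of at least 4, because the FDR there was too small to be listed. Covered length and numbers of members with fewer peaks were recomputed under settings chosen after seeing the data. A fold enrichment of at least 4 removed most member peaks and left 6 in PTC and 8 in control, over 6307 and 6869 nt. With it 1 member was in PTC only, 2 in control only and 4 in both, of which 3 had less covered length in PTC (59.8% of all genes), Cd69 being the exception, and 1 had fewer peaks in PTC. With it 5 pathway genes were in PTC only, 5 in control only and 21 in both. Of the 6 PTC and 8 control member peaks left, 66.7% and 50% were overlapped. The 3' UTR held 83.3% of their PTC and 50% of their control midpoints, and 0% of either list lay near the stop codon. GGACT was in 100% of these PTC and 50% of these control peaks, which were wide, with medians of 958 and 761 nt. Shares of these kinds over all peaks at this limit are not given. Pathway genes in control only numbered 1 at a −log10 FDR of at least 5 and 1 at equal list length. Overlapped shares of member peaks were 67.6% in PTC and 59.0% in control with 50% of each peak shared, and 55.9% and 48.7% with midpoints within 100 bp. Shares over all peaks are not given at these stricter settings. The member values there cannot be set against the 78.8% and 60.2% of all peaks at 1 bp. Within 400 nt of the stop codon lay 26.5% and 28.2%. In a short window around the midpoint GGACT was in 6.67% of PTC and 8.82% of control member peaks. This was counted over the 30 and 34 peaks with a midpoint in the principal transcript. The shares of all such peaks were 13.4% and 12.0%, and the member shares rest on very few peaks with a site. With few peaks per member, depth per sample unknown and 1 list per condition, a peak missing from a list does not show that the mark was absent.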
